A study of Mus musculus with 2 samples.

Results

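The genes described here encode 10 enzymes that modify and crosslink collagen: the lysyl oxidase family (Lox, Loxl1, Loxl2, Loxl3 and Loxl4), the lysyl hydroxylases (Plod1, Plod2 and Plod3) and some of the catalytic subunits of the collagen prolyl hydroxylases (P4ha1 and P4ha2, without P4ha3). They were chosen by name, and all 10 were among the 31054 features of both count matrices. Single-cell RNA sequencing (scRNAseq, 10x Chromium) was performed on the rib repair callus at 4 days post injury (dpi), after a large-scale resection of rib bone in adult mice of both sexes that had been given tamoxifen before the injury. The control library came from mice of the genotype Sox9:CreER;R26:tdT;Smo flox/+ and the Smo cKO library from mice that were Smo flox/flox with the same Sox9:CreER and R26:tdT alleles, and each library was made from a pool of 3 animals. Both genotypes therefore carry the Sox9:CreER driver, the tdTomato reporter and at least 1 floxed Smo allele, and Cre deletes Smo, the Hedgehog signal transducer, only in cells of the Sox9 lineage and their progeny. The comparison of genotypes asks how the callus differs when Sox9+ lineage cells cannot receive a Hedgehog signal.

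Collagen chains are hydroxylated inside the endoplasmic reticulum before they fold. P4HA subunits, together with P4HB, hydroxylate proline, which stabilizes the triple helix, while PLOD enzymes hydroxylate lysine, which later serves as a site for sugars and for crosslinks. Outside the cell, lysyl oxidases oxidize lysine and hydroxylysine side chains of collagen and elastin, and the reactive groups then join neighbouring molecules into a fibre that resists force. In healing bone these enzymes act on the collagen-rich matrix laid down by fibroblasts, chondrocytes and osteoblasts. LOX is the founding oxidase, LOXL1 is known for its part in elastic fibres, LOXL2 for crosslinking of collagen IV and fibrillar collagen, and PLOD2 for hydroxylating the telopeptides of fibrillar collagen. PLOD1 mainly acts on the helical part of the chain, and PLOD3 also adds sugars to hydroxylysine. P4ha1 and Plod2 are well-known targets of the hypoxia-inducible transcription factors.

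P4ha1 and P4ha2, catalytic subunits of the prolyl hydroxylase, had similar patterns across the connective subclasses described below, so their upstream sequences are shown. RefSeq promoter windows (GRCm38.p6) were found for 5 of the 10 genes. Each sequence is the 250 bases upstream of the RefSeq start, 5′ to 3′ on the coding strand. P4ha1 lies on the plus strand at chr10:59323296-59373304 and its window at chr10:59323046-59323295. P4ha2 lies on the plus strand at chr11:54100095-54131665 and its window at chr11:54100674-54100923, inside the annotated gene, and neither window overlaps an annotated exon. Capitals mark ACGTG or GCGTG, the core of hypoxia response elements, read on either strand.
P4ha1: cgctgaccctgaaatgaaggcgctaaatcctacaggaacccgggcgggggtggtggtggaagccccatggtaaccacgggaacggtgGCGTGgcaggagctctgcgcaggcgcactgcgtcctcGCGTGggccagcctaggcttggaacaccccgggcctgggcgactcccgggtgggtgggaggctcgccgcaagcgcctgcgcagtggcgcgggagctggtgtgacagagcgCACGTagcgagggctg
P4ha2: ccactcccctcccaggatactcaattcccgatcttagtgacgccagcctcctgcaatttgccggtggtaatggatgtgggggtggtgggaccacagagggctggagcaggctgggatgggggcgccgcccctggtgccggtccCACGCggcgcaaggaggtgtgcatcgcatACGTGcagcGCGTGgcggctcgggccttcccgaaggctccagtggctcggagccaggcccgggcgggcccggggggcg
Each of the 2 windows held 1 ACGTG and 2 GCGTG matches, with no overlap between them. Of all 32851 upstream windows of this length in the table, 16.6% held ACGTG, 28.2% held GCGTG and 38.6% held at least 1 of these cores. The GLI site GACCACCCA was in neither window and in 0.225% of all windows. The windows of Loxl4, Plod1 and Plod3, which are not shown, each held at least 1 hypoxia response core as well. G and C made up 69.6% of the P4ha1 window and 70% of the P4ha2 window, a share that was not taken over all windows. A match of letters is a description and not a measured binding site.

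Of the other genes whose place is given here, by GENCODE vM21 on GRCm38, Loxl2 (chr14:69609068-69695834), Loxl3 (chr6:83034173-83052562), Plod2 (chr9:92542223-92608428) and Plod3 (chr5:136987019-136996648) lie on the plus strand. Loxl1 (chr9:58287738-58313186), Loxl4 (chr19:42593982-42612813) and Plod1 (chr4:147909753-147936767) lie on the minus strand. Loxl2, Loxl3 and Plod3 each overlap a gene on the opposite strand that is also in the count matrices (Gm27177, Htra2 and Znhit1). No gene in the matrices overlaps a member on the same strand. Whether reads from the opposite strand entered the values was not tested.

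Both libraries held many deep cells. The control matrix had 10747 barcodes and 105367110 UMIs, and the Smo cKO matrix 10512 barcodes and 112700220 UMIs. After the limits of at least 200 genes and under 10% of UMIs on mitochondrial genes, 10057 and 9507 cells remained, with a median of 8367 and 9092 UMIs. Of the barcodes, 613 were present in both libraries. Cells were gated on marker genes into classes, and 635 control and 831 Smo cKO cells that carried markers of more than 1 lineage were set aside as mixed. Connective cells made up 6312 control and 5265 Smo cKO cells, and a median of 8 of the 10 connective markers was detected in them in each library, ahead of the next list, osteoclast, with a median of 2 of 8. In connective cells Smo was at 19.1 CPM (UMIs per 1000000 UMIs) in control and 12.3 CPM in Smo cKO (log2 ratio -0.63, 95% interval -0.75 to -0.52). UMIs were counted at the 3′ end of the transcript, so this value does not check the deletion itself. There was 1 library per genotype, so no value between genotypes has a replicate check, and every interval given here is a 95% interval that covers counting error only.

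Among the classes ordered below, 8 of the 10 genes, all but Plod1 and Loxl4, had their highest CPM in connective cells in both libraries. For Plod3 the connective interval overlapped that of mural cells in both libraries. The share of all genes with their highest CPM in connective cells was not counted, so this count has no background beside it. Of the 9 members that reached 10 CPM in connective or macrophage cells, 6 were at least 4-fold higher in connective cells in both libraries, where 10.5% of the 7766 genes at that level, gate markers left out, passed the same limit. These 6 were Lox, Loxl1, Loxl2, Loxl3, Plod2 and P4ha2. The other 3, Plod1, Plod3 and P4ha1, were less than 4-fold higher in connective than in macrophage cells in both libraries.

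**Figure D1:**
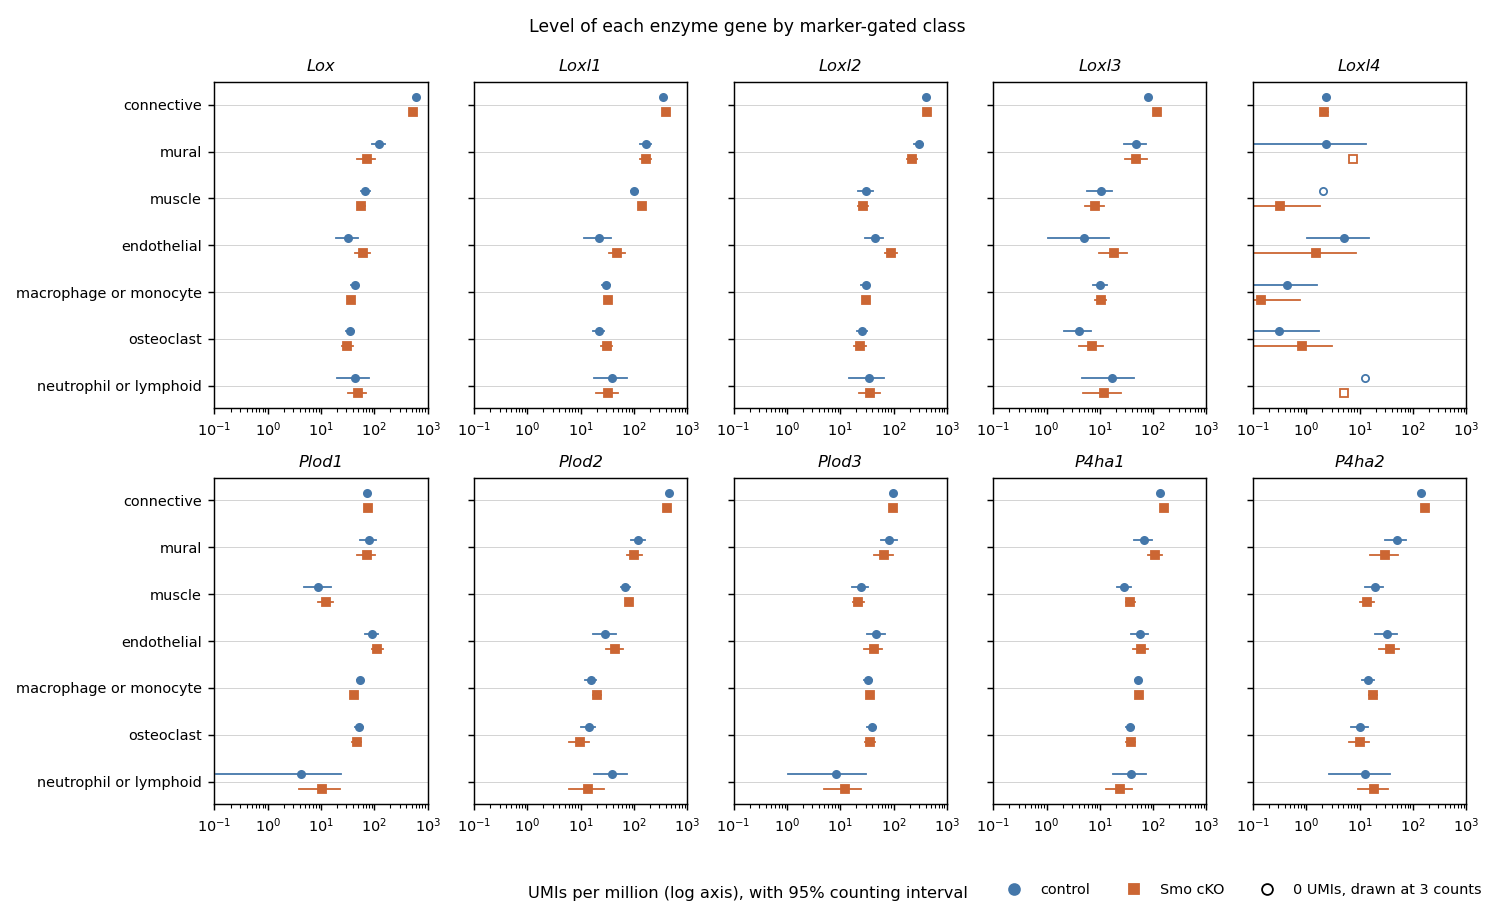
Level of each gene in 7 marker-gated classes, in CPM on a log axis, for the control (blue circles) and Smo cKO (orange squares) libraries, with 95% counting intervals and with open symbols, drawn at the level of 3 counts, where no UMI was found. Lox, Loxl1, Loxl2, Loxl3, Plod2 and P4ha2 sit far to the right in connective cells, Plod1 is at 71.7 to 115 CPM in connective, mural and endothelial cells and highest in endothelial cells, and Loxl4 reaches at most 5.09 CPM in any class where a UMI was found.

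Among the oxidases, Lox was at 615 CPM in control and 522 CPM in Smo cKO connective cells. The next class was mural cells, the pericytes and smooth muscle cells of vessels, at 120 and 71.7 CPM. Macrophages or monocytes held 42.6 and 36.3 CPM of Lox, so that connective cells were 14.4-fold higher in both libraries. Orders are given over 8 classes: connective, mural, muscle, endothelial, macrophage or monocyte, osteoclast, neutrophil and T or NK cells. Each of these had at least 30 cells in both libraries. B cells and myeloid progenitors were not ordered, although the Smo cKO library held 37 and 31 of them. In the control, mural cells were apart from muscle cells by their counting intervals, while in the Smo cKO library mural, endothelial, T or NK and muscle cells followed each other with overlapping intervals.

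Loxl1 had a broader range. It was at 349 CPM in control and 401 CPM in Smo cKO connective cells, at 165 and 166 CPM in mural cells and at 102 and 141 CPM in muscle-lineage cells. Muscle-lineage cells, gated on genes such as Pax7, Myod1 and Des, were apart from mural cells in the control and overlapped them in the Smo cKO library. They showed fewer connective markers (a median of 2 of 10) than mural cells did (a median of 5 in control and 6 in Smo cKO). The part of connective RNA in the mural values was not tested.

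Loxl2 was also high in mural cells. Connective cells held 412 CPM in control and 418 CPM in Smo cKO, and mural cells 295 and 225 CPM, over 43 control and 33 Smo cKO cells. The mural interval was 246 to 352 CPM in control cells and 181 to 278 CPM in Smo cKO cells, below connective cells in both. Endothelial Loxl2 was 44.1 CPM in control and 90.2 CPM in Smo cKO, from 26 and 59 UMIs.

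Loxl3 had the same order at its top. It was at 80.0 and 116 CPM in connective cells and at 47.2 and 48.6 CPM in mural cells, while every other ordered class was at or below 31.5 CPM. Loxl4 was close to absent. Its 196 UMIs in control and 178 UMIs in Smo cKO connective cells gave 2.36 and 2.17 CPM, and a UMI was found in 3.01% and 3.23% of connective cells. No UMI of Loxl4 was found in control muscle cells, where 3 counts would be 2.06 CPM.

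The lysyl hydroxylases split by gene. Plod2 was at 445 CPM in control and 412 CPM in Smo cKO connective cells, 28.4-fold and 20.3-fold above macrophages or monocytes. Muscle-lineage cells held 69.3 and 82.0 CPM of Plod2. Among the ordered classes Plod1 had its highest level in endothelial cells, at 90.0 CPM (67.4 to 118) in control and 115 CPM (90.2 to 144) in Smo cKO, from 53 and 75 UMIs. Connective cells held 71.7 and 74.9 CPM of Plod1, so that the endothelial interval was apart from the connective one in the Smo cKO library and overlapped it in the control. Macrophages or monocytes were at 53.1 and 42.2 CPM and osteoclasts at 51.6 and 47.1 CPM, while muscle-lineage cells were at 8.92 and 12.3 CPM. Plod3 was at 97.2 and 96.5 CPM in connective cells, and its mural level of 82.6 and 66.6 CPM overlapped that range in both libraries.

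P4ha1 and P4ha2 parted outside connective cells. P4ha1 was at 137 and 158 CPM in connective cells and at 51.1 and 54.8 CPM in macrophages or monocytes. P4ha2 was at 145 and 168 CPM in connective cells and at 14.6 and 18.2 CPM in macrophages or monocytes. Connective cells were above macrophages or monocytes by 2.68-fold and 2.88-fold for P4ha1, against 9.94-fold and 9.20-fold for P4ha2.

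Free RNA from lysed cells can add UMIs to a droplet, and collagen in macrophages or monocytes was taken as a scale for RNA from other cells. The source of that collagen RNA was not tested. In macrophages or monocytes, Col1a1, Col1a2 and Col3a1 were found at 5.42% to 6.78% of their connective CPM. Lox and Loxl2 were at 6.93% and 7.23% in control cells and at 6.95% and 7.27% in Smo cKO cells. Loxl1 was at 8.59% and 8.03%, and Plod2 was below the collagens at 3.52% and 4.93%. Loxl3 (12.5% and 9.07%) and P4ha2 (10.1% and 10.9%) were also above the collagens. P4ha1 (37.3% and 34.7%), Plod3 (34.5% and 37.0%) and Plod1 (74.0% and 56.3%) were well above that scale.

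Detection was also compared at equal depth. Cells were thinned to 2000 UMIs each and shallower cells were left out, 280 control and 199 Smo cKO cells among connective cells and 517 and 379 among macrophages or monocytes. Neutrophils, T or NK cells and B cells, which should lack lysyl oxidases, served as the background, with 29 control and 104 Smo cKO cells after 103 and 155 were left out. Whether the background cells make Plod1, Plod3 or P4ha1 themselves was not tested, so for these genes they are a comparison and not a zero. The unthinned depth of the background cells was far below that of connective cells, at a median of 1083 UMIs against 11136 for control neutrophils and connective cells.

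**Figure D2:**
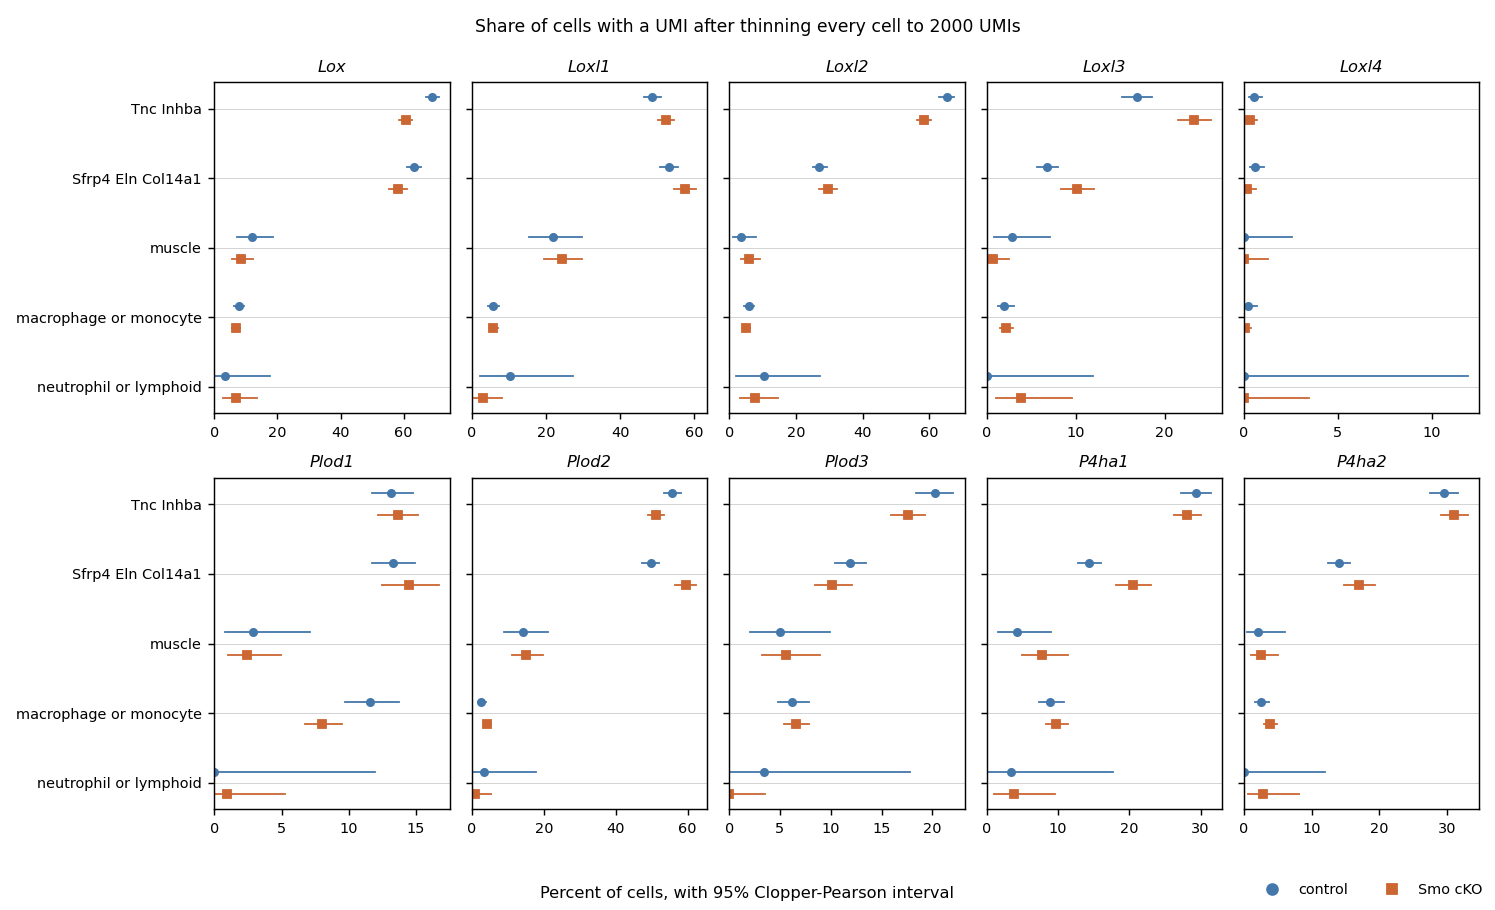
Percent of cells with at least 1 UMI of each gene after every cell was thinned to 2000 UMIs, in 5 groups of cells, with 95% Clopper-Pearson intervals, control in blue circles and Smo cKO in orange squares. Loxl2, Loxl3, Plod3, P4ha1 and P4ha2 were found in a larger share of Tnc Inhba than of Sfrp4 Eln Col14a1 cells in both libraries, and the background group at the bottom of each panel has wide intervals.

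A Lox UMI was found in 66.0% of control and 58.8% of Smo cKO connective cells after thinning (93.6% and 92.8% before). The share was 7.72% and 6.73% in macrophages or monocytes and 3.45% and 6.73% in the background group. The intervals of macrophages and background cells overlapped, so the macrophage share of Lox was not told apart from background. Loxl2 was found in 5.82% and 5.11% of macrophages or monocytes against 10.3% and 7.69% of the background group, and was read in the same way. Plod1 was found in 11.6% and 8.02% of macrophages or monocytes and in 0 of 29 control and 0.962% of Smo cKO background cells. With 0 of 29 cells the share of background cells may be up to 11.9% (exact binomial), so the difference was clear of counting error in the Smo cKO library alone. P4ha1 was found in 8.96% and 9.77% of macrophages or monocytes and in 3.45% and 3.85% of background cells, with intervals that overlapped in both libraries. Plod3 was found in 65 of 1049 control and 101 of 1546 Smo cKO macrophages or monocytes and in 3.45% of control and 0 of 104 Smo cKO background cells, which allows a share of up to 3.48% (exact binomial), with intervals apart in the Smo cKO library alone. Loxl1 was found in 22.0% of control and 24.2% of Smo cKO muscle-lineage cells, against 10.3% and 2.88% of background cells, and the intervals were apart in the Smo cKO library alone. Out of the 10 genes, a thinned connective cell showed a mean of 2.96 in control and 3.12 in Smo cKO, and a macrophage or monocyte 0.534 and 0.522.

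Connective cells were divided further by 6 marker lists, named by their genes or by the cells they are known from. In the control and Smo cKO libraries, 1839 and 1123 cells were Sfrp4 Eln Col14a1 cells, 892 and 528 adventitial progenitor cells, 2028 and 2173 Tnc Inhba cells, 989 and 835 Fmod Acan Col11a1 cells, 313 and 405 tendon cells and 86 and 98 osteoblast lineage cells. Since each cell was given to the list with the highest score, the subclasses are ranges of a score rather than types, and 713 control and 621 Smo cKO cells had a second list within 0.1 of the first. Tnc Inhba cells were also deeper, at a median of 16787 and 18243 UMIs against 8352 and 9952 for Sfrp4 Eln Col14a1 cells.

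**Figure D3:**
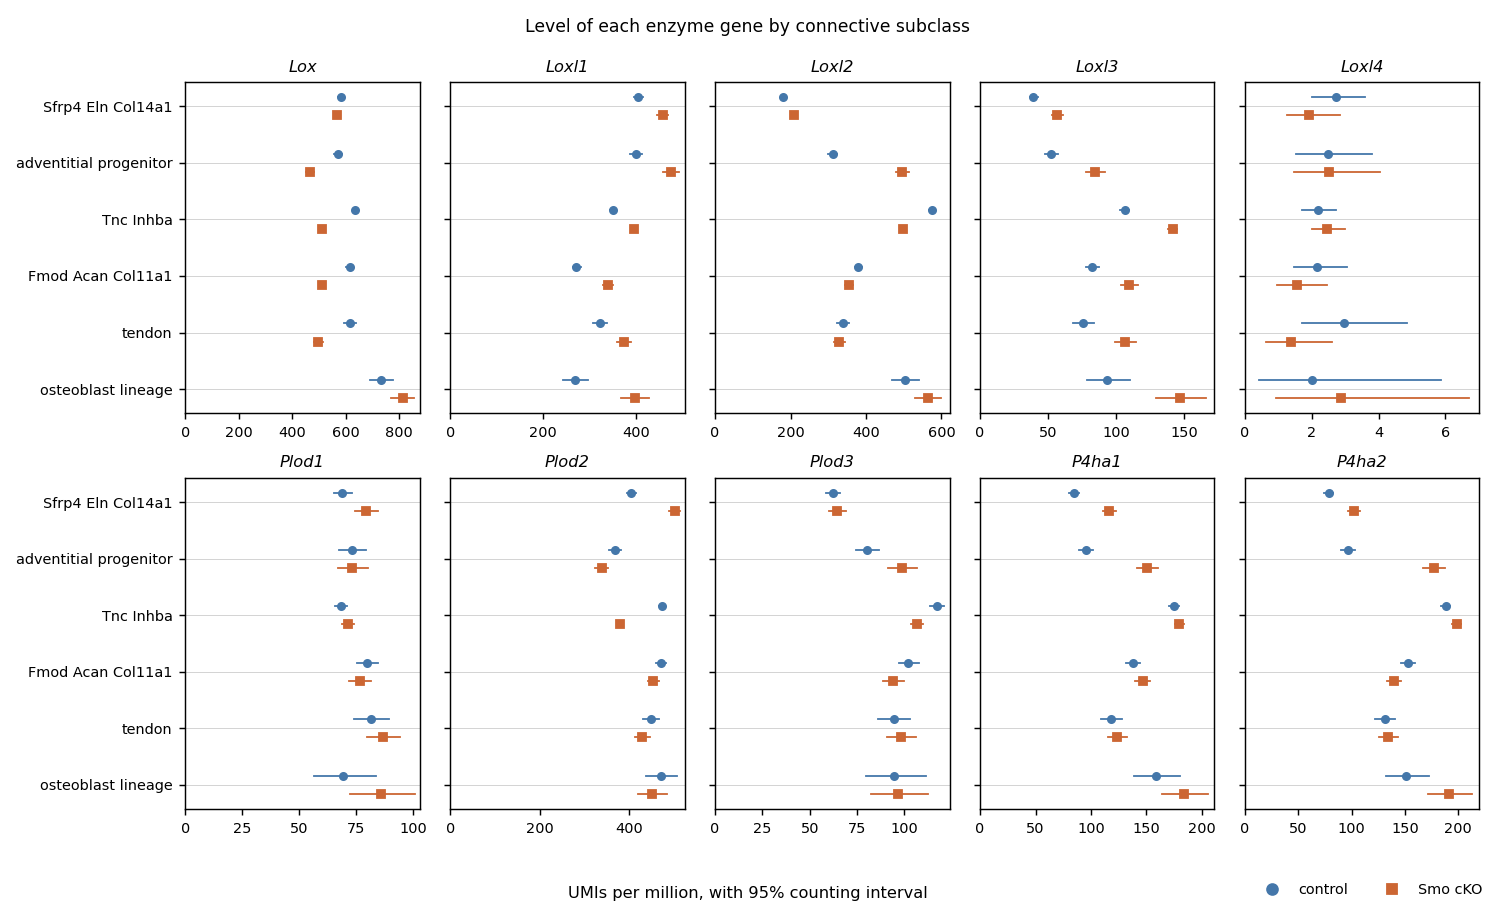
Level of each gene in 6 connective subclasses, in CPM from 0, for control (blue circles) and Smo cKO (orange squares), with 95% counting intervals. Loxl2 ranges from 180 CPM in Sfrp4 Eln Col14a1 to 574 CPM in Tnc Inhba cells of the control, Plod1 varies little, and Loxl1 is lowest in Fmod Acan Col11a1 or osteoblast lineage cells.

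Tnc Inhba cells carried more of 5 enzymes than Sfrp4 Eln Col14a1 cells in both libraries. Tnc Inhba cells are marked by genes such as Tnc, Inhba, Timp1 and Acta2, known from wound-activated fibroblasts, and the other subclass by genes of elastic and loose matrix. Of 9 members at 10 CPM or more, 5 were at least 1.5-fold higher in Tnc Inhba cells in both libraries and 0 were at least 1.5-fold lower, where 15.1% of 7169 genes were higher and 10.9% lower by the same limits, gate markers left out. The members that were higher were Loxl2, Loxl3, Plod3, P4ha1 and P4ha2. Loxl2 had led an earlier cluster of these data, so its part in this count and in the members' median is not independent. The median log2 ratio of the members was 0.91 in control and 0.62 in Smo cKO, against 0.19 and 0.08 for all genes. Relative to those medians P4ha1 was at 0.54 in the Smo cKO library, below the 1.5-fold limit of 0.58, and 4 members passed. With at most 2000 detected genes per cell 3 members passed, Loxl2, Loxl3 and P4ha2, while Plod3 was at 0.74 and 0.42 and P4ha1 at 0.51 and 0.69. The share of all genes that passed was not counted relative to the medians or under this limit.

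Loxl2 had the widest range. It had led an earlier cluster of these data and was left out of the marker lists. Its spread over subclasses is therefore not an independent finding. Control cells held 180 CPM in Sfrp4 Eln Col14a1, 311 in adventitial progenitor, 339 in tendon, 380 in Fmod Acan Col11a1, 503 in osteoblast lineage and 574 in Tnc Inhba cells, each apart from the next by its interval. In the Smo cKO library the lowest subclass was again Sfrp4 Eln Col14a1, at 208 CPM, and the highest was osteoblast lineage, at 564 CPM. Tnc Inhba cells, at 497 CPM, and adventitial progenitor cells, at 496 CPM, did not differ beyond their intervals there. The log2 ratio of Tnc Inhba over Sfrp4 Eln Col14a1 cells was 1.67 (1.62 to 1.72) in control and 1.26 (1.20 to 1.32) in Smo cKO. After thinning, Loxl2 was found in 65.1% against 27.1% of control cells and in 58.3% against 29.5% of Smo cKO cells.

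Loxl3 had the same order of subclasses as Loxl2 in the control. It was at 39.2 CPM in Sfrp4 Eln Col14a1 and 106 CPM in Tnc Inhba cells of the control, and at 56.8 and 141 CPM in the Smo cKO library. The highest Smo cKO value was in osteoblast lineage cells, at 146 CPM, and overlapped that of Tnc Inhba cells. The log2 ratio between the subclasses was 1.44 in control and 1.31 in Smo cKO.

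P4ha2 was at 78.7 CPM in Sfrp4 Eln Col14a1 and 188 CPM in Tnc Inhba cells of the control, and at 102 and 199 CPM in the Smo cKO library. P4ha1 was at 84.4 and 175 CPM in control and at 117 and 180 CPM in Smo cKO. Plod3 was at 62.3 and 117 CPM in control and at 64.4 and 107 CPM in Smo cKO. All 3 genes were thus lowest in Sfrp4 Eln Col14a1 cells in both libraries, although P4ha1 in tendon cells (123 CPM) overlapped it in the Smo cKO library. P4ha1 and P4ha2 overlapped between Tnc Inhba and osteoblast lineage cells there.

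Lox and Loxl1 had other orders. Lox was highest in osteoblast lineage cells in both libraries, at 733 CPM (690 to 778) in control and 813 CPM (772 to 857) in Smo cKO, apart from every other subclass. The other 5 subclasses lay between 571 and 637 CPM in control and between 467 and 568 CPM in Smo cKO. Tnc Inhba cells were above Sfrp4 Eln Col14a1 cells for Lox in the control (637 against 583 CPM) and below them in the Smo cKO library (512 against 568 CPM). Relative to the median of all genes the control ratio of Lox was -0.06, on the other side of 0. Loxl1, the elastic fibre oxidase, was highest in Sfrp4 Eln Col14a1 and adventitial progenitor cells, at 405 and 399 CPM in control and 456 and 474 CPM in Smo cKO, and these 2 subclasses overlapped in both. Its log2 ratio of Tnc Inhba over Sfrp4 Eln Col14a1 cells was -0.21 in each library.

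Plod1 varied little by subclass, and Plod2 was lowest in adventitial progenitor cells in both libraries. Plod1 ran from 68.1 to 81.3 CPM in control and from 71.2 to 86.5 CPM in Smo cKO, and every subclass overlapped its neighbours. Plod2 ran from 368 CPM to 473 CPM in Tnc Inhba cells in the control, and from 338 CPM to 502 CPM in Sfrp4 Eln Col14a1 cells in the Smo cKO library. Loxl4 stayed at or below 2.98 CPM in every subclass, with overlapping intervals.

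The other genes of the pathway were taken from 7 lists, chosen with earlier results of these data known. Of 45 listed genes that were not gate markers, 40 were at 10 CPM or more, and 9 were at least 1.5-fold higher and 8 lower in Tnc Inhba than in Sfrp4 Eln Col14a1 cells in both libraries, against 15.1% and 10.9% of all genes. Among the prolyl hydroxylation partners 1 of 7 was higher, P3h1, a prolyl 3-hydroxylase, at 64.1 CPM in Sfrp4 Eln Col14a1 cells of each library and at 111 and 101 CPM in Tnc Inhba cells. P4hb, the partner subunit of P4HA, had log2 ratios of 0.56 and 0.39. P4ha3, a P4HA subunit that is not among the 10 enzymes, was below 0, at -0.34 and -0.26, unlike P4ha1 and P4ha2. Fkbp10, a chaperone of lysyl hydroxylase 2, was at 0.82 in control and 0.48 in Smo cKO, and Serpinh1, the collagen chaperone HSP47, at 0.79 and 0.33. In both libraries 0 of 4 genes of lysine glycosylation and lysyl hydroxylase partners were higher and 1 was lower, and of 3 chaperone and export genes 0 passed either limit. Of 5 propeptide processing genes 2 were higher, Pcolce2 and Adamts14, and 1 was lower, Adamts2, a procollagen N-proteinase (-1.50 and -1.68). Of 7 crosslinking substrates, 0 were higher and 3 were lower in both libraries: Col1a1 (-0.86 and -0.88), Col1a2 (-0.84 and -0.88) and Col3a1 (-0.92 and -0.98). Of 4 LOX binding matrix genes, 2 were lower, Fbln5 and Tnxb, both matrix partners of elastic or collagen fibres, with Fbln5 at -2.02 and -2.19. Of 10 hypoxia-responsive genes, 6 were higher in both libraries, among them Pgk1 (1.62 and 1.58), Ldha (1.39 and 1.24) and Vegfa (1.02 and 0.67), and 1 was lower, Ndrg1 (-1.05 and -0.71).

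**Figure D4:**
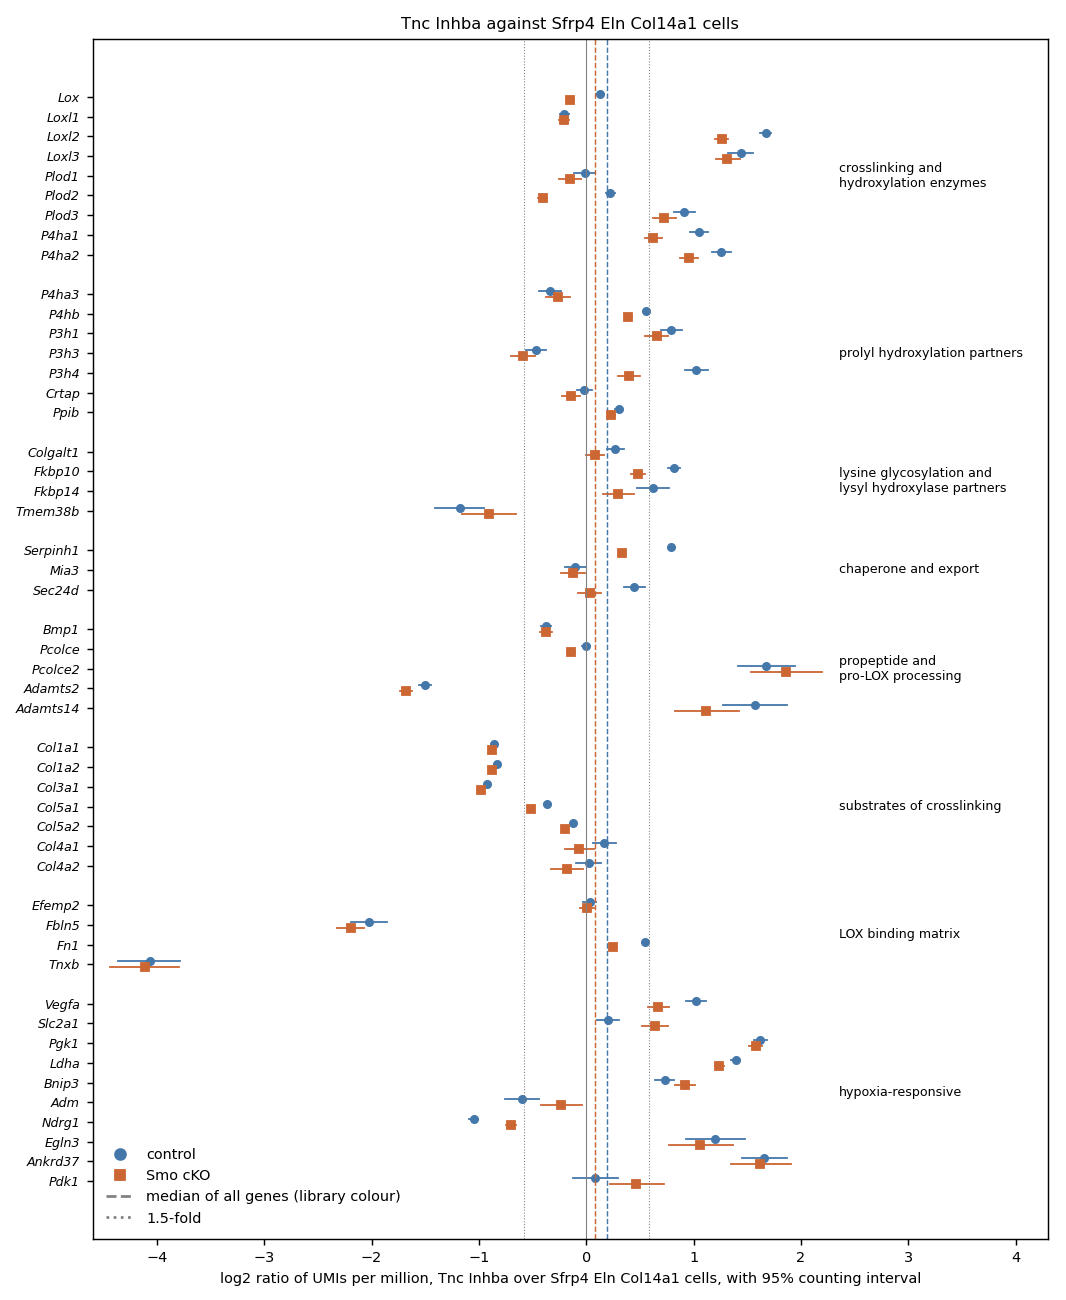
Log2 ratio of CPM, Tnc Inhba over Sfrp4 Eln Col14a1 cells, for the 9 enzymes and 40 listed genes at 10 CPM or more, with 95% counting intervals, control in blue circles and Smo cKO in orange squares, dashed lines at the median of all genes in each library and dotted lines at 1.5-fold. Loxl2, Loxl3, Plod3, P4ha1 and P4ha2 lie right of the dotted line in both libraries, while Col1a1, Col1a2 and Col3a1 lie left of it.

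Cycling cells, with at least 2 of 7 cell cycle markers, numbered 2148 in control and 2379 in Smo cKO among connective cells. They were also deeper, at a median of 18779 UMIs against 8854.5 in other control cells and 19909 against 10323.5 in Smo cKO. The part of depth in this split was not tested. Over all connective cells Loxl2 was at 489 CPM in cycling and 333 CPM in other control cells, and at 445 and 377 CPM in the Smo cKO library. Within Tnc Inhba cells the values were 566 and 590 CPM in control and 484 and 533 CPM in Smo cKO, so cycling cells were then slightly lower. Loxl3 likewise had a log2 ratio of cycling over other cells of 0.64 over all control connective cells and of 0.15 within Tnc Inhba cells. P4ha1 went from 0.42 to 0.05 and P4ha2 from 0.43 to 0.01 in the control. Plod2 was lower in cycling Tnc Inhba cells in both libraries, at 446 against 532 CPM and 366 against 413 CPM.

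Between genotypes, no enzyme differed by 1.5-fold over all connective cells. Of 9 members at 10 CPM or more, 0 were at least 1.5-fold above and 0 at least 1.5-fold below control in the Smo cKO library, where 2.22% of 7264 genes were above and 1.54% below. The log2 ratios of Smo cKO over control ran from -0.24 for Lox to 0.53 for Loxl3, with a median of 0.06 against 0.02 for all genes.

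Loxl3 was at 80.0 CPM in control and 116 CPM in Smo cKO, a log2 ratio of 0.53 (0.49 to 0.58), from 6643 and 9516 UMIs. It was higher in the Smo cKO library in 6 of 6 subclasses, by 0.41 to 0.69. Leaving out cycling cells, counting each cell equally or keeping only cells of at most 2000 detected genes took Loxl3 past 1.5-fold, to 0.69, 0.62 and 0.96. Under the last of these limits 14.7% of 7341 genes were past 1.5-fold above control, and the median of all genes was 0.14. Neither value was taken for all genes without cycling cells or with each cell counted equally. Over the 10 alternative settings Loxl3 ran from 0.42, in tdTomato cells, to 0.96. Relative to the median of all genes it was at 0.51, under the limit. Loxl1 was at 349 and 401 CPM (0.20, 0.18 to 0.22) and was also higher in 6 of 6 subclasses, by 0.17 to 0.56. The share of all genes that were higher in every subclass was not counted. Lox was at 615 and 522 CPM (-0.24, -0.25 to -0.22). Its interval lay below 0 in 4 of 6 subclasses and above 0 in osteoblast lineage cells, at 0.15 (0.04 to 0.27).

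P4ha1 (137 and 158 CPM) and P4ha2 (145 and 168 CPM) each had a log2 ratio of 0.21 over all connective cells. By subclass P4ha1 ran from 0.04 in Tnc Inhba to 0.66 in adventitial progenitor cells, above 0 in all 6, with intervals above 0 in 2. P4ha2 ran from -0.13 in Fmod Acan Col11a1 to 0.87 in adventitial progenitor cells. Tnc Inhba cells, where P4ha2 was at 0.08, made up 32.1% of control and 41.3% of Smo cKO connective cells. Over the 10 alternative settings, among them an equal subclass mix, P4ha1 ran from 0.12 to 0.46 and P4ha2 from 0.19 to 0.61. Plod2 was at -0.11 (-0.14 to -0.09), with 445 and 412 CPM, and its sign changed in 2 of 10 alternative settings, which ran from -0.13 to 0.27. Plod1 was at 0.06, Plod3 at -0.01 and Loxl2 at 0.02, and the intervals of Plod3 and Loxl2 held 0. Loxl4 was at -0.12 (-0.42 to 0.18), below the level limit.

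**Figure D5:**
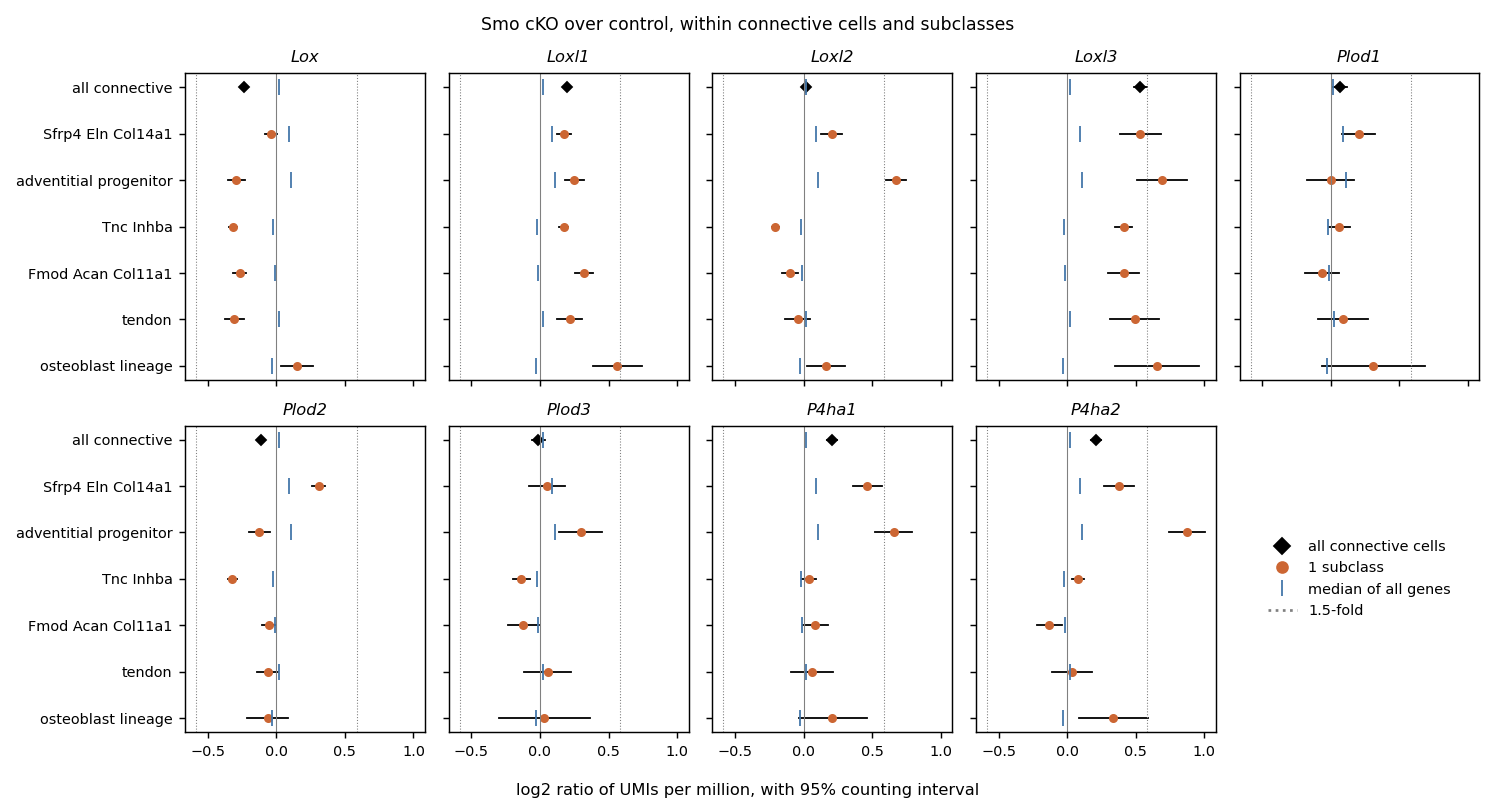
Log2 ratio of Smo cKO over control for 9 enzymes, over all connective cells (black diamonds) and within 6 subclasses (orange circles), with 95% counting intervals, blue ticks at the median of all genes and dotted lines at 1.5-fold. Loxl1, Loxl3 and P4ha1 lie right of 0 in every subclass, with intervals clear of 0 in all 6 for Loxl1 and Loxl3 and in 2 for P4ha1. Loxl2 lies left of 0 in Tnc Inhba and right of 0 in adventitial progenitor cells.

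Among the connective subclasses, the largest differences between genotypes were in adventitial progenitor cells. These were gated on at least 3 of Pi16, Dpp4, Cd34, Ly6a, Clec3b, Dpt and Cd248, genes known from fibroblasts around vessels. No single marker was required. In these cells P4ha2 was at 96.6 CPM in control and 177 CPM in Smo cKO (0.87, 0.74 to 1.00). Loxl2 was at 311 and 496 CPM (0.67), Loxl3 at 52.3 and 84.5 CPM (0.69) and P4ha1 at 95.5 and 151 CPM (0.66). These 4 of 9 members were past 1.5-fold, where 14.4% of 7412 genes were above control by that much in the same cells. The median of all genes was itself shifted by 0.11 there, and relative to it P4ha2 (0.77) stayed past the limit while Loxl2 (0.57), Loxl3 (0.58) and P4ha1 (0.55) came to just under it. Marker lists moved with these values. In adventitial progenitor cells all 6 Tnc Inhba markers were higher in the Smo cKO library, from a sum of 2568 to 3924 CPM, and all 6 Sfrp4 Eln Col14a1 markers were lower, from 2173 to 1425 CPM, with none of them at 0 in either library. The adventitial list itself had 4 of 7 markers higher and 3 lower, and its sum was 1613 and 2205 CPM. Of the Fmod Acan Col11a1 list 6 of 7 markers were higher and 1 was lower, from a sum of 858 to 1233 CPM. All 7 osteoblast lineage markers were higher, from 42.2 to 46.8 CPM, and of 5 tendon markers 3 were higher and 2 lower. In Sfrp4 Eln Col14a1 cells 5 of 6 Tnc Inhba markers were higher as well, from 2156 to 2703 CPM. The part of these markers in the 4 enzyme values was not tested. With Ly6a left out of the adventitial list, 834 control and 387 Smo cKO cells remained, with P4ha2 at 0.89, Loxl2 at 0.75, P4ha1 at 0.67 and Loxl3 at 0.43, of which Loxl3 alone was then under 1.5-fold.

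In osteoblast lineage cells, 1 of 9 members was past 1.5-fold, Loxl3, at 93.1 and 146 CPM (0.65, 0.35 to 0.96), where 6.69% of 7606 genes were above control. Loxl1 came next there, at 268 and 396 CPM (0.56), and was at 0.59 relative to the median of all genes. In Tnc Inhba cells Lox (637 and 512 CPM), Loxl2 (574 and 497 CPM) and Plod2 (473 and 379 CPM) were lower in the Smo cKO library, by log2 ratios of -0.32, -0.21 and -0.32. In Sfrp4 Eln Col14a1 cells Plod2 was higher instead, at 405 and 502 CPM (0.31), as were P4ha1, at 84.4 and 117 CPM (0.47), and P4ha2, at 78.7 and 102 CPM (0.38). Over the 6 subclasses, 5 of 9 members with at least 100 UMIs per library in 2 or more of them had intervals clear of 0 in opposite directions in 2 subclasses, where 13.3% of 8007 genes did. The intervals are narrower for genes with more UMIs, and the 9 members had at least 100 UMIs per library in all 6 subclasses. The 2 shares are therefore not like for like. All subclass ratios come from the same 2 libraries.

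A tdTomato UMI was found in 50 control and 114 Smo cKO connective cells. Among these cells Lox was at 634 and 542 CPM, Loxl3 at 99.1 and 132 CPM and P4ha2 at 142 and 188 CPM, and the 3 intervals of the log2 ratio between genotypes lay on the same side of 0 as over all connective cells. The other 7 genes had intervals that held 0 in these cells. The tdTomato cells are part of the connective cells compared above, and their median depth was 13797 UMIs in control and 20044.5 UMIs in Smo cKO. The share of all genes with an interval clear of 0 was not counted in tdTomato cells. Outside connective cells, the interval of the ratio between genotypes lay clear of 0 in 8 of the members' 57 ratios at 10 CPM or more over 7 classes, against 15.3% of 48619 such ratios of all genes, so the members' share was near that of all genes. Muscle-lineage Loxl1 was at 102 and 141 CPM (0.46, 0.19 to 0.74) and osteoclast Loxl1 at 21.7 and 30.8 CPM (0.51). In the 54 control and 59 Smo cKO endothelial cells, Lox (32.3 and 61.2 CPM), Loxl1 (22.1 and 48.9 CPM) and Loxl2 (44.1 and 90.2 CPM) were all higher in the Smo cKO library. The median number of connective markers per endothelial cell was 3 in both libraries, which does not measure the amount of connective RNA. The part of connective RNA in the endothelial values was not tested. Intervals of these log2 ratios were wide, at 0.10 to 1.79 for Lox, 0.18 to 2.20 for Loxl1 and 0.34 to 1.76 for Loxl2. Mural Lox was lower, at 120 and 71.7 CPM from 51 and 28 UMIs (-0.75, -1.47 to -0.06). Mural P4ha1 was higher, at 66.1 and 110 CPM from 28 and 43 UMIs (0.74, 0.02 to 1.48). Both intervals came close to 0. Macrophage or monocyte Plod1 was lower, at 53.1 and 42.2 CPM (-0.33, -0.58 to -0.08).

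Of the listed pathway genes in all connective cells, 44 of 50 were at 10 CPM or more, and 1 was past 1.5-fold above control and 1 below, set against 2.22% and 1.54% of all genes. These were Fbln5, a fibulin of elastic fibres, at 27.5 CPM in control and 42.1 CPM in Smo cKO, and Tnxb, at 20.2 and 11.3 CPM. The 9 substrates at that level had a median log2 ratio of -0.23, with Col1a1 at -0.21, Col1a2 at -0.20 and Col3a1 at -0.28. Serpinh1 was at 2288 and 2979 CPM (0.38). The 10 hypoxia-responsive genes had a median of 0.06, 6 above and 4 below 0, with Pgk1 at 0.50 and Ldha at 0.49 but Ankrd37 at -0.37, Ndrg1 at -0.32 and Adm at -0.25. P4hb, at 928 and 927 CPM, was level.

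The genes with the most similar level across classes were sought among 8450 genes at 20 CPM or more in at least 1 of 13 units, each a class of at least 50 cells in 1 library. Mural cells, at 43 in control and 33 in Smo cKO, were too few to give a unit, so their levels do not enter the correlations. Since units share a library and differ in depth, these correlations of log2(CPM + 1) are descriptions. Lox was nearest to Col5a2 (r = 0.986), Pcolce (0.980) and Col1a2 (0.978). Loxl2 was nearest to Thbs4 (0.984), Col16a1 (0.976) and Tnc (0.973), and Loxl3 to Inhba (0.941), Igfbp6 (0.939) and Cilp (0.935). Loxl1 was nearest to Medag (0.971), Sdc2 (0.968) and Gpx3 (0.963), and Plod2 to Bgn (0.957), Gpx3 (0.951) and Fndc1 (0.950). Plod1 was nearest to Mgat1 (0.947), Camk2d (0.944) and Rab1a (0.941), Plod3 to Slc35a2 (0.961), Copa (0.945) and Gorasp2 (0.938), P4ha1 to Arpc1a (0.981), Slc39a14 (0.964) and Fndc3b (0.961), and P4ha2 to Uap1 (0.979), Ikbip (0.948) and Aoc3 (0.945). Loxl4 reached at most 5.09 CPM in a unit, and its neighbours are not given. Between members, r was highest for Loxl1 with Plod2 (0.950) and lowest for Loxl1 with Plod1 (0.064).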

How the data were processed

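The deposited values are raw UMI counts for each gene and barcode, which the authors made with Cell Ranger 3.0.2 against mm10, as the submitters' processing notes also say. Cells with at least 200 genes and under 10% of UMIs on the 13 genes beginning with "mt-" were kept. The upper limit of 2000 genes used in the study's methods was tried as an alternative, since it removes 58.0% of the kept control and 59.4% of the kept Smo cKO cells.

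Each cell went to the marker list of which it showed the highest percentage, with at least 3 markers and a lead of 1.5-fold over lists of other lineages. Without that lead it was called mixed, and no other doublet caller was run. A total of 745 control and 568 Smo cKO cells reached no class. Connective cells were given to the subclass list with the highest mean z score of ln(1 + UMIs per 10000), among lists with at least 3 markers detected. The members, gene lists and tests were chosen with earlier results of these data known, and the scoring rules of the gates after the files were seen.

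UMIs were summed over cells and divided by their total to give CPM, with exact Poisson intervals, and ratios have exact conditional intervals of 2 counts. A gene was called past 1.5-fold (4-fold between classes) at 10 CPM or more in either group. With 1 library per genotype no test was made and no p-value is given. Scripts were tested on simulated counts. The named genes are the members, the listed genes of the pathway, of which 50 of 52 were in the files, the 3 genes most like each member, and Smo. Gene positions come from GENCODE vM21 (GRCm38), and protein sequences were not used here. Python 3.11.15, numpy 2.4.6, scipy 1.17.1, pandas 2.3.3 and matplotlib were used.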

Additional observations from a re-analysis of the deposited data

Results flagged for a closer look

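In 5 of 9 members the Smo cKO over control ratio went in opposite directions in 2 connective subclasses, with both counting intervals clear of 0 and at least 100 UMIs in each library, which 13.3% of 8007 genes also met. The 8007 genes reached 100 UMIs in each library in 2 or more subclasses, and the 9 members did so in all 6. The lowest member counts were those of Plod1 in osteoblast lineage cells, at 103 and 149 UMIs. Intervals are narrower for genes with more UMIs, so the members' share and that of all genes are not like for like. Whether the subclasses differ in this was not tested, since each genotype is 1 library. The lowest log2 ratio of Lox was -0.32, in Tnc Inhba cells, and the highest was 0.15, in osteoblast lineage cells. Loxl2 ran from -0.21 in Tnc Inhba to 0.67 in adventitial progenitor cells. Plod2 ran from -0.32 in Tnc Inhba to 0.31 in Sfrp4 Eln Col14a1 cells. Plod3 ran from -0.14 in Tnc Inhba to 0.30 in adventitial progenitor cells. P4ha2 ran from -0.13 in Fmod Acan Col11a1 to 0.87 in adventitial progenitor cells. The adventitial progenitor values of Loxl2, Plod3 and P4ha2 come from cells in which markers of several lists also differed between the libraries. All 6 Tnc Inhba markers and 6 of 7 Fmod Acan Col11a1 markers were higher in the Smo cKO library there, and all 6 Sfrp4 Eln Col14a1 markers were lower. In Sfrp4 Eln Col14a1 cells 5 of 6 Tnc Inhba markers were higher too. The part of these markers in the ratios was not tested.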

How the results depend on the processing

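Of 57 alternatives of the main counts and medians, 47 stayed within 1.5 times the main count or within 0.1 of the main log2 median. The limit of at most 2000 genes per cell, which left 1430 control and 827 Smo cKO connective cells, moved the most: 3 rather than 5 members were higher in Tnc Inhba than in Sfrp4 Eln Col14a1 cells in both libraries (Loxl2, Loxl3 and P4ha2), 2 rather than 0 members were past 1.5-fold above control between genotypes (Loxl3 at 0.96 and P4ha2 at 0.61), the members' median log2 ratio was 0.34 rather than 0.06, and 10 rather than 1 of the listed genes were past 1.5-fold above control, with a median of 0.12 rather than -0.04. Under that limit 14.7% of 7341 genes were past 1.5-fold above control and the median of all genes was 0.14. Without cycling cells 1 member, Loxl3, was past 1.5-fold and the median was 0.17, and with every cell weighted equally 1 member was past 1.5-fold. The share of all genes past 1.5-fold was not counted under these 2 settings. It was also not counted for Tnc Inhba over Sfrp4 Eln Col14a1 cells under the limit of 2000 genes. A level limit of 50 CPM left 0 listed genes above and 0 below by 1.5-fold, since Fbln5 and Tnxb are below it. The causes of the other changes were not tested. Of the members' log2 ratios between genotypes, those of Plod2 and Plod3 alone changed sign, Plod2 in 2 and Plod3 in 3 of 10 alternatives, with ranges of -0.13 to 0.27 and -0.25 to 0.13. Alternatives added after the data were seen left out the 613 shared barcodes or Ly6a, kept only tdTomato cells or rescaled the subclass ratios. Leaving out replicates could not be done, with 1 library per genotype. No paired analysis was possible because each genotype has 1 library. Depth limits Loxl4, and the mural, endothelial and background values, which rest on few cells.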
